A study of Mus musculus with 7 samples.

Results

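Cadherins and protocadherins are the calcium-dependent adhesion genes described here, in neurons of the embryonic mouse hypothalamus. The members are the rows of the deposited table whose symbol is Cdh followed by a number, or starts with Pcdh. There were 92 of them among 18331 uniquely named genes. They comprised 4 classical type I cadherins, 13 type II cadherins, 4 other cadherins, 58 clustered protocadherins (14 alpha, 22 beta and 22 gamma), 12 other protocadherins and Pcdha4-g, a transcript that RefSeq draws across the clusters.

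The study compared Pomc neurons, which make the precursor of appetite-suppressing peptides, with Npy neurons, whose peptide stimulates feeding. Both were purified by fluorescence-activated sorting from dissected arcuate nuclei at embryonic day E15.5, and total RNA was sequenced. There were 4 Pomc libraries and 2 usable Npy libraries. The labels name no strain, genotype, reporter, sex or litter, and the p-values below cover no more than the spread among these libraries, which may be technical. The column for Npy replicate 3 was left out. In all 15223 genes with a value it is the mean of the other Npy columns times a whole percent between 95 and 105, within 1e-04 percentage points.

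All levels below are TPM, which is transcript abundance per gene length, scaled to 1000000 in each library. TPM keeps no record of read depth, so no counting interval can be given. Where a value is 0, it says no more than that the table lists 0. Genes above 0 numbered 12493 to 14656 in the Pomc libraries, with the fewest in replicate 4, and 14933 and 12922 in the Npy libraries. Short RNA genes took 9.41 to 12.2% of the Pomc libraries and 13.1 and 15.9% of the Npy libraries. The gene Pomc stood at 352 to 770 TPM in the Pomc libraries against 24.0 and 59.4 in the Npy libraries. The gene Npy reached 728 and 513 TPM in its own group against 2.11 to 152 in the Pomc libraries. Each sort marker was thus higher in every library of its own group than in the other group. In the test described below the gene Pomc passed (limma adjusted p = 0.00454), but the gene Npy did not (limma adjusted p = 0.418). A list of 14 pan-neuronal genes summed to 7191 to 9426 TPM in the Pomc libraries, against 6329 and 5663 in Npy libraries.

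Classical cadherins bind the same or a related cadherin on a neighbouring cell and link to actin through catenins. In the brain, combinations of them help neurons to sort into nuclei and to choose synaptic partners. Clustered protocadherins give single neurons a surface identity, because each neuron switches on only some members, and neurites of the same cell then recognise and avoid each other. Alpha and gamma members each have their own first exon, joined to last exons that all members of that cluster share, whereas beta members have no such shared exons. Non-clustered protocadherins act in axon growth, synapse formation and the control of classical cadherins.

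Of the 92 members, 84 reached 1 TPM in at least 2 of the 6 libraries and were tested with limma on log2(TPM + 1) together with all other genes, 13845 in all. A positive log2 fold change means higher in Pomc neurons, and the scale understates differences of genes with low values. The type II cadherin gene Cdh7 was higher in Pomc neurons, and no other member passed an adjusted p of 0.05 (Benjamini-Hochberg over all tested genes). Over all tested genes 0.412% passed, 0.289% as higher in Pomc and 0.123% as higher in Npy neurons, and among the members the share was 1.19%. At an unadjusted p under 0.05 there were 6 members, or 7.14%, beside 7.36% of all tested genes. The groups did not overlap in 11 members, or 13.1%, beside 15.9% of all tested genes. Of these, 7 members lay higher in Pomc and 4 higher in Npy libraries, beside 8.05% and 7.86% of all tested genes. Over the 84 members, the shares at the unadjusted p and without overlap were thus close to, or below, those of all genes. The share past the adjusted p rests on a single member. Without the alpha and gamma members and Pcdha4-g, whose rows share sequence, 47 tested members remained. Of these 47, 6 had an unadjusted limma p under 0.05, or 12.8%, and 10 did not overlap, or 21.3%. Both shares lay above those of all tested genes. The median log2 fold change was -0.10 over the 84 tested members, with 19 above 0 and 65 below, beside 0.02 over all tested genes. Over the 47 members without those rows it was -0.13, with 19 above 0 and 28 below. By class the median was 0.28 over 11 type II cadherins, -0.13 over 21 beta and -0.14 over 11 other protocadherins.

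Cdh7 (chromosome 1, 109982237 to 110145272, GRCm38) encodes a type II cadherin known in chick from migrating neural crest cells. It stood at 22.5, 22.0, 28.7 and 30.9 TPM in Pomc replicates 1 to 4, against 2.65 and 3.64 TPM in Npy libraries. Every Pomc library was far above both Npy libraries, and neither group varied much within itself. The log2 fold change was 2.70 ± 0.45 (SE, n = 4 and 2), or 6.50-fold, with a 95% interval of 1.69 to 3.71 and a limma adjusted p of 0.0451. The exact permutation test, two-sided, gave p = 0.0667, the smallest value that the 15 splits allow. The call ended when any single library was left out, with limma adjusted p between 0.088 and 0.225 and log2 fold changes between 2.53 and 2.87. It also ended with a pseudocount of 0.1, with libraries centred on their median, with no filter and with a replicate block, at limma adjusted p of 0.0518, 0.0526, 0.0965 and 0.475. Its exons overlap no other annotated gene. In bulk samples, fewer cells that express a gene and less RNA per cell cannot be told apart.

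**Figure D1:**
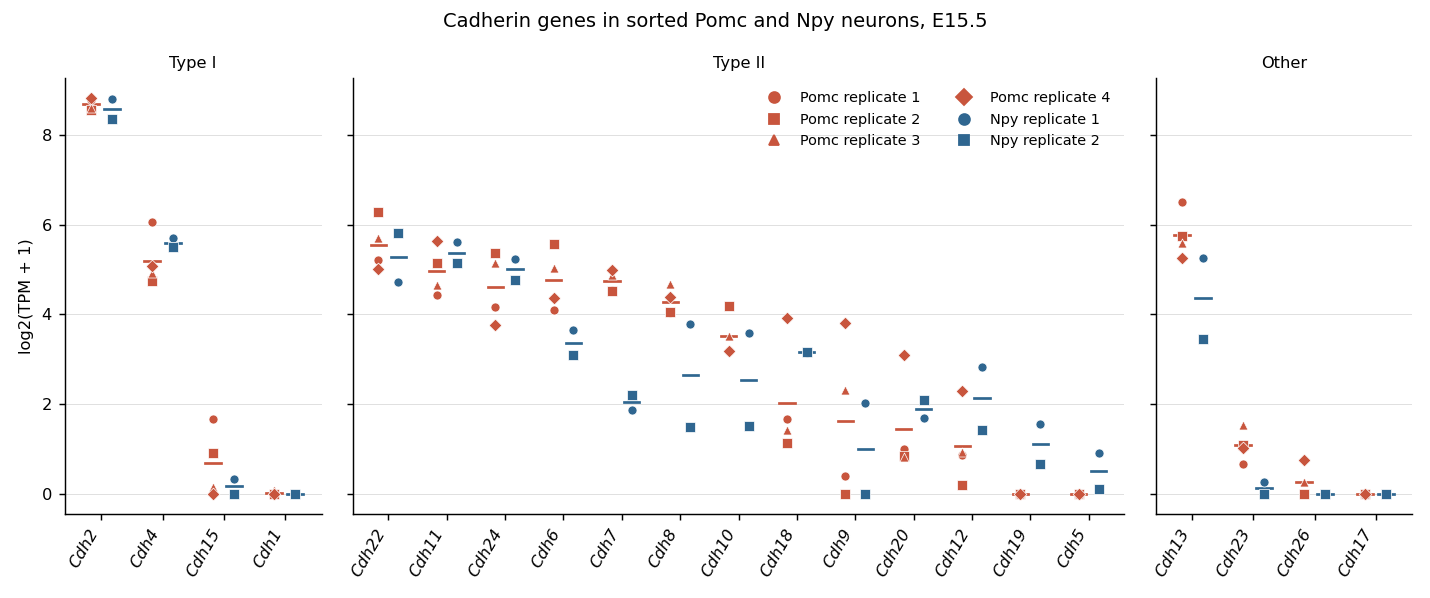
Levels of all cadherin members as log2(TPM + 1) on the vertical axis, with 1 point per library, Pomc in red and Npy in blue, and a bar at each group's mean. Genes are ordered by mean level within type I, type II and other cadherins. Cdh2 lies highest in both groups, and Cdh7 has all Pomc points between 22.0 and 30.9 TPM and both Npy points under 4 TPM.

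The summed level of marker genes of the neighbouring ventromedial nucleus was also higher in every Pomc library. The 7 listed genes summed to 304 to 465 TPM in the Pomc libraries, against 41.1 and 37.0 in Npy libraries. Of these, Nr5a1, Sox14 and Adcyap1 were each higher in Pomc neurons (limma adjusted p up to 0.00749), and none of the 7 was listed at 0 in all Pomc libraries. The other 4 were not called. Among them, Nkx2-2 and Vgll2 overlapped between the groups, with log2 fold changes of -0.38 and -0.98. Their part in the Cdh7 result was not tested. The pan-neuronal sum given above was higher in every Pomc library than in both Npy libraries, but 0 of its 14 genes were called. Tubb3, Stmn2, Stmn3 and Elavl4 were higher in every Pomc library, and the other genes of that list overlapped. Among these, Snap25 and Syt1 had log2 fold changes of -0.26 and -0.30.

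Among type I cadherins, Cdh2, which encodes N-cadherin, the main classical cadherin of neural tissue, had the highest mean level of all members. It stood at 435, 373, 387 and 450 TPM in Pomc replicates 1 to 4, against 448 and 327 TPM in Npy libraries. The groups overlapped, with a log2 fold change of 0.10 ± 0.19 and a 95% interval of -0.32 to 0.52 (limma adjusted p = 0.933). Cdh4, encoding R-cadherin of the brain and retina, stood at 65.6 TPM in Pomc replicate 1 and at 26.0, 29.1 and 32.7 TPM in replicates 2 to 4. Its Npy values of 51.2 and 44.2 TPM lay inside that range. Cdh1, the E-cadherin gene of epithelia, was listed at 0 in all libraries except Pomc replicate 3, where it had 0.0693 TPM. Cdh15, the M-cadherin gene of muscle, reached at most 2.19 TPM, so both failed the filter on low values.

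Several type II cadherins were present at middle levels. Cdh22, known from brain and pituitary, stood at 36.2, 76.7, 50.8 and 31.1 TPM in the Pomc libraries, against 25.4 and 55.6 TPM in Npy libraries. Cdh11, a cadherin of mesenchyme and brain, stood at 20.7, 34.5, 24.1 and 48.4 TPM against 47.9 and 34.5. Cdh24 stood at 17.0, 40.4, 34.4 and 12.6 TPM against 36.6 and 26.4. In each of these the groups overlapped, and the limma adjusted p was 0.861 or more.

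Cdh6 and Cdh8 were above both Npy libraries in every Pomc library but did not pass the threshold. Cdh6, first known from kidney and also active in parts of the developing brain, stood at 16.2, 46.7, 31.8 and 19.7 TPM against 11.6 and 7.53 (log2 1.40 ± 0.50, limma adjusted p = 0.559). Cdh8, which marks subsets of brain nuclei and circuits, stood at 15.4, 15.6, 24.6 and 19.8 TPM against 12.9 and 1.83 (log2 1.64 ± 0.66, limma adjusted p = 0.611). Its distance between the groups rests on Npy replicate 2, and the log2 fold change was 0.49 without that library. Cdh10 stood at 8.05 to 17.2 TPM in the Pomc libraries against 10.9 and 1.87, with overlap.

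Pomc replicate 4 had the highest Pomc value in 6 of the 11 tested type II members. In 4 of these, singled out after their values were seen, the other Pomc libraries were low. Cdh18 stood at 14.1 TPM in replicate 4 and at 1.19 to 2.18 in the others, with 7.80 and 8.02 TPM in the Npy libraries. Cdh9 stood at 13.0 TPM there against 0 to 3.98, Cdh20 at 7.51 against 0.760 to 1.01, and Cdh12 at 3.87 against 0.153 to 0.909. Pomc replicate 4 also had more signal on the microglia list (43.0 TPM summed over 7 genes, against 0 to 2.27 in the other Pomc libraries). That sum came mainly from P2ry12, Csf1r and Cx3cr1, at 22.7, 13.1 and 6.55 TPM, while C1qa and Tyrobp were listed at 0 in all 6 libraries. The radial glia and astrocyte list summed to 638 TPM there against 274 to 347. Vim alone gave 529.6 of this sum, whereas Hes1, Aldh1l1, Aqp4, Gfap and Rax were listed at 0 in that library. The same library had more signal on the dividing cell list, at 98.2 TPM against 41.0 to 61.2. Pcna gave 50.0 and Mki67 16.4 TPM of this sum, whereas Ccnb1, Cdk1 and Birc5 were listed at 0 in that library. The part of these lists in the values of Cdh9, Cdh12, Cdh18 and Cdh20 was not tested.

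The other cadherins include Cdh13, or T-cadherin, which is held in the membrane by a lipid anchor, lacks the catenin-binding tail and binds adiponectin. It stood at 90.4, 52.7, 47.4 and 37.1 TPM in Pomc replicates 1 to 4, against 37.1 and 10.0 TPM in Npy libraries. The lowest Pomc value lay above the higher Npy value by less than the digits printed. The log2 fold change of 1.42 ± 0.51 did not pass (limma adjusted p = 0.564) and was 0.53 without Npy replicate 2. Cdh23, a tip-link cadherin of inner ear hair cells, stood at 0.599 to 1.88 TPM in the Pomc group, against 0.212 and 0. Cdh17, the liver-intestine cadherin, was listed at 0 in all 6 libraries, and Cdh26 reached at most 0.700 TPM.

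Of the members that mark other cell types, Cdh5, Cdh19 and Pcdh12 were low in all libraries, while Pcdh15 was tested and is given below. Cdh5, the VE-cadherin of blood vessels, was listed at 0 in all Pomc libraries, against 0.888 and 0.0860 TPM in Npy libraries. Cdh19, known from Schwann cell precursors and glia, was listed at 0 in all Pomc libraries, against 1.94 and 0.584 TPM in Npy libraries. Pcdh12, a vascular protocadherin, was at 3.92 TPM in Pomc replicate 4, at 0.0685 TPM in replicate 3 and at 0 elsewhere. None of the 3 passed the filter. The endothelial and pericyte list summed to 1.31 to 13.0 TPM in the Pomc libraries, against 2.55 and 19.4 in Npy libraries.

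The non-clustered protocadherins had no call (11 tested). At an unadjusted limma p under 0.05 there were 2, or 18.2%, beside 7.36% of all tested genes. The groups did not overlap in 2, or 18.2%, beside 15.9% of all tested genes, and each share rests on 2 members. Mean levels of the non-clustered protocadherins over the 6 libraries ran from 0.665 to 79.0 TPM. Pcdh19, an X-linked gene whose product works with N-cadherin and which is mutated in an epilepsy, had the highest mean level among them. The gene (chromosome X, 133582860 to 133689044) stood at 62.7, 80.3, 65.0 and 57.2 TPM in Pomc replicates 1 to 4, against 109 and 101 TPM in Npy libraries. Neither Npy value came down to the Pomc range. The log2 fold change was -0.66 ± 0.22 with a 95% interval of -1.15 to -0.17, and the limma adjusted p was 0.475. It was between -0.75 and -0.59 with any 1 library left out.

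**Figure D2:**
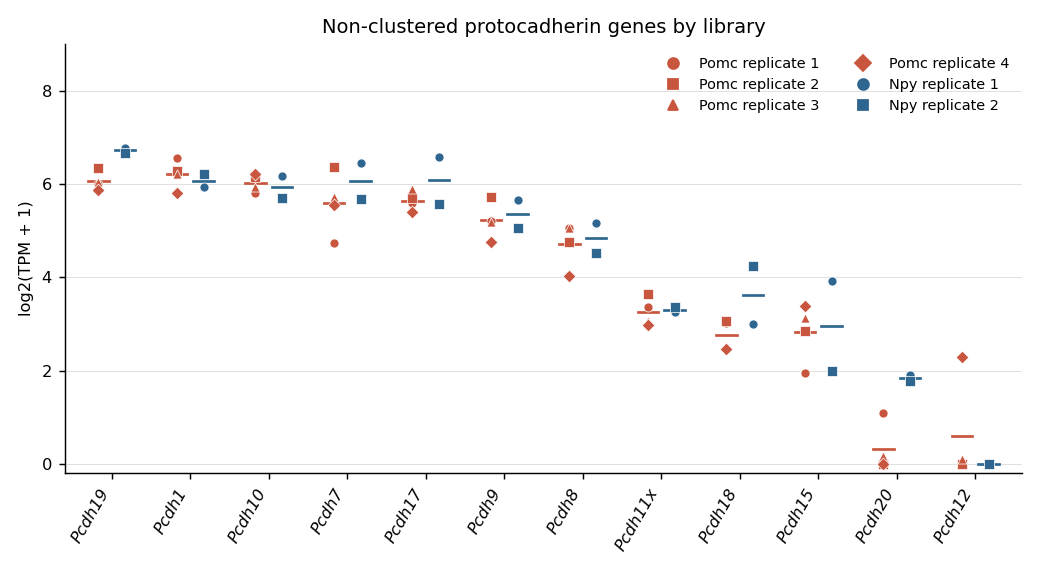
Levels of the 12 non-clustered protocadherins as log2(TPM + 1) on the vertical axis, with 1 point per library, Pomc in red and Npy in blue, and a bar at each group's mean. Pcdh19 and Pcdh20 have both Npy points above all Pomc points, while the groups overlap in the other tested members.

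Pcdh20 showed the same separation at a far lower level, at 1.13, 0, 0.117 and 0 TPM in the Pomc libraries against 2.77 and 2.41. Its log2 fold change was -1.53 ± 0.67 (limma adjusted p = 0.671). Genes of the oligodendrocyte lineage were also higher in the Npy libraries. The 9 listed genes summed to 294 and 262 TPM there and to 68.7 to 95.5 in the Pomc libraries, where Olig2 and Cspg4 were listed at 0 in every library, and 6 of the 9 were called. Dividing cell genes summed to 150 and 101 TPM in the Npy libraries against 41.0 to 98.2, but 0 of the 9 listed were called. Top2a, Ccnb1, Ccna2 and Birc5 were higher in both Npy libraries than in any Pomc library. Mki67, Cdk1, Aurkb, Mcm2 and Pcna overlapped, and Pcna had a log2 fold change of 0.71. The part of the oligodendrocyte lineage and dividing cell genes in the Pcdh19, Pcdh20 and Cdh19 values was not tested. Pcdh15, a tip-link protein gene that oligodendrocyte precursors also express, stood at 2.84, 6.21, 7.67 and 9.47 TPM in the Pomc libraries against 14.1 and 2.96, so the groups overlapped.

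The remaining abundant members of this class did not separate the groups. Pcdh1 stood at 93.6, 76.8, 73.3 and 54.8 TPM against 60.3 and 72.9. Pcdh10, which acts in axon growth and in sorting of cells, stood at 54.8, 70.1, 60.1 and 72.9 TPM against 71.2 and 50.9, with a 95% interval of -0.47 to 0.64 for its log2 fold change. Pcdh7 stood at 25.8, 81.0, 51.6 and 45.5 TPM against 86.0 and 50.2, and 2235 of its 10604 exon bases overlap another annotated gene. Pcdh17, which acts in synapse assembly, stood at 40.9 to 58.4 TPM in the Pomc libraries, against 95.03 TPM in Npy replicate 1 and 46.4 TPM in Npy replicate 2. The mean levels of Pcdh1, Pcdh10, Pcdh7 and Pcdh17 over the libraries are neighbours in order and do not differ beyond this spread.

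All clustered protocadherins lie on chromosome 18, with the alpha cluster at 36930285 to 37188897, the beta cluster at 37264998 to 37521419 and the gamma cluster at 37661775 to 37841873 (GRCm38, RefSeq). All 36 alpha and gamma members were tested and none was called (limma, 0 at an unadjusted p under 0.05). The 21 tested beta members likewise had no call and 0 at an unadjusted p under 0.05.

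Within a library, alpha members were nearly equal. They ran from 51.7 to 63.5 TPM in Pomc replicate 1, from 61.3 to 75.1 in replicate 2, from 35.5 to 49.4 in replicate 3 and from 45.1 to 60.4 in replicate 4. In the Npy libraries they ran from 52.1 to 65.5 and from 47.1 to 58.0 TPM. The coefficient of variation across the 14 members was 5.73 to 9.38% in each library. All 14 were highest in Pomc replicate 2 and lowest in Pomc replicate 3, so both extremes were Pomc libraries and the Npy values lay between.

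Gamma members were also nearly equal within a library, at a higher level of 185 to 335 TPM in Pomc and 208 to 348 TPM in Npy libraries, with a coefficient of variation of 6.42 to 9.45% across the 22 members. Of the 22, 21 were lowest in Pomc replicate 3, while 12 were highest in Npy replicate 2. Pcdhgc3 was highest of the cluster in all 6 libraries, at 307, 335, 278 and 279 TPM in the Pomc libraries and 293 and 348 in the Npy libraries. Pcdhgb6 had the next highest mean, with 221 to 271 TPM in the Pomc libraries and 262 and 266 in the Npy libraries. Pcdhgb7, Pcdhga11 and Pcdhga10 came next, and all 3 ran from 204 to 265 TPM in the Pomc libraries. Pcdhga12 was lowest in 5 of the 6 libraries.

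These near-equal values touch what a single alpha or gamma row can mean. In the GENCODE M21 annotation every gamma member shares exon bases with all 21 others, and 27.8 to 66.8% of a member's exon bases are shared. For the 13 alpha members in that annotation the share is 28.5 to 54.9%. The sources used here do not give how the authors assigned reads from shared exons. Over the 6 libraries, pairs of members correlated on log2(TPM + 1) at a median r of 0.97 in the alpha cluster and 0.97 in the gamma cluster, but at 0.06 in the beta cluster (n = 6 libraries for each pair, which share their scaling). The alpha and gamma rows are therefore no independent measurements, the choice of single members by these neurons cannot be read from them, and no sum over these rows is given. Pcdhgc4, which mouse interneurons need to survive, and Pcdhac2, which spaces serotonergic axons, fall under the same limit. Pcdhgc4 stood at 185 to 241 TPM in the Pomc libraries, against 219 and 249. Pcdhac2 stood at 49.4 to 72.0 TPM, against 65.1 and 58.0.

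**Figure D3:**
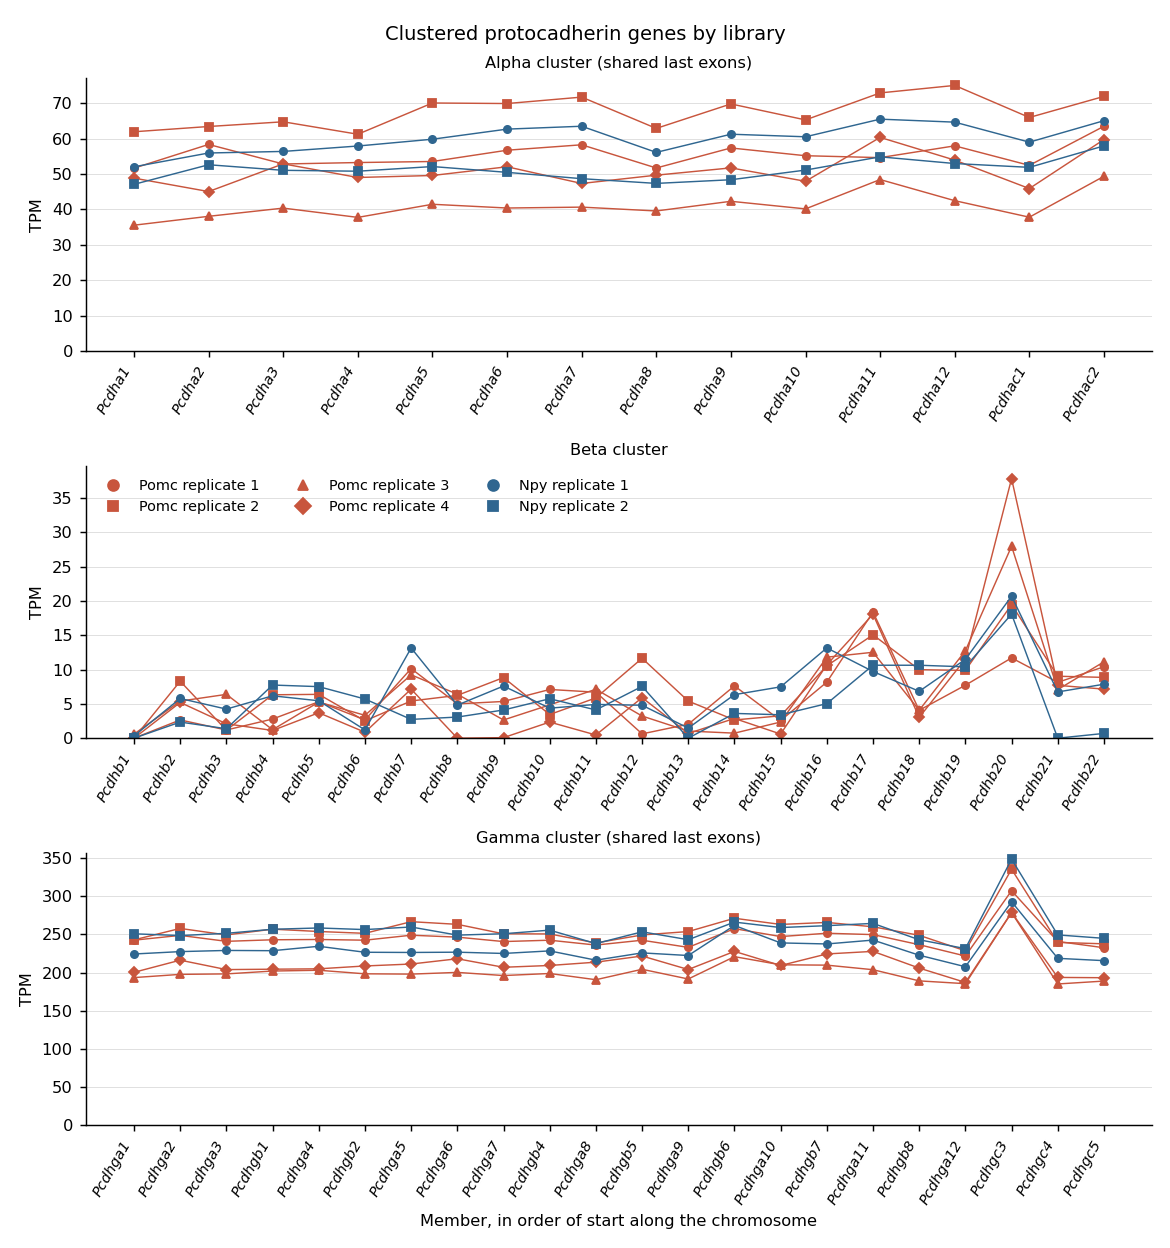
TPM of each clustered protocadherin (vertical axis, starting at 0) in the order of the members along chromosome 18, with 1 line per library, Pomc in red and Npy in blue. Alpha and gamma lines run nearly flat and parallel with a peak at Pcdhgc3, whereas beta values differ from member to member and are highest at Pcdhb20.

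For the clusters as wholes, the log2 fold changes of alpha members ran from -0.16 to -0.0006, with a median of -0.06, and those of gamma members from -0.13 to -0.04, with a median of -0.10. The median over all tested genes was 0.02. For Pcdhgc3 the 95% interval was -0.48 to 0.29 and for Pcdha11 -0.60 to 0.53. Pcdha4-g, at 173, 154, 144 and 168 TPM in the Pomc libraries and 176 and 204 in the Npy libraries, had a log2 fold change of -0.25 ± 0.18 (limma adjusted p = 0.819). RefSeq now lists that symbol as a synonym and draws its gene from 36952648 to 37841873, across all 3 clusters.

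Beta members have nearly no shared exons, so their rows can be told apart, except that Pcdhb21 and Pcdhb22 share 455 bases. Of the 3034 exon bases of Pcdhb12, 1927 overlap another annotated gene. Levels of different members also depend on the gene lengths used, which the sources do not give. The levels of beta members were low and uneven. Of the 22, between 15 and 21 reached 1 TPM in a library, with 15 in Pomc replicate 4 and 18 in Npy replicate 2. In each group this was also the library with the fewest genes above 0, at 12493 and 12922. Pcdhb20 had the highest mean, at 11.7, 19.5, 28.0 and 37.8 TPM in Pomc replicates 1 to 4 and 20.7 and 18.1 TPM in the Npy libraries, which lie inside the Pomc range. Pcdhb1, the first of the cluster, was listed at 0 in 4 of the 6 libraries and reached at most 0.591 TPM.

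Levels were higher towards the last members of the beta cluster. The 7 members from Pcdhb16 to Pcdhb22 had mean levels over the 6 libraries of 6.43 to 22.6 TPM, with a median of 9.90. The 15 from Pcdhb1 to Pcdhb15 had 0.154 to 7.97 TPM, with a median of 4.26. This division was chosen after the values were seen. In each single library the median of the last 7 was 8.17 to 11.8 TPM and that of the first 15 was 1.12 to 5.42 TPM, so each library of both groups showed the higher level of the last members. Across the 22 members, order along the chromosome and mean TPM had a Spearman rho of 0.61, a description of members measured in the same libraries. Annotated exon bases and mean TPM had a Spearman rho of 0.38, and the part of gene length in these levels was not tested.

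Single beta members varied widely between libraries. Pcdhb17 stood at 18.4, 15.1, 12.5 and 18.0 TPM in the Pomc libraries against 9.71 and 10.6, without overlap but with a log2 fold change of only 0.59 ± 0.44 and no call by limma. Pcdhb21 stood at 8.14, 9.02, 7.08 and 7.70 TPM against 6.74 TPM in Npy replicate 1 and 0 in Npy replicate 2. Pcdhb15 stood at 2.57, 3.26, 2.35 and 0.603 TPM against 7.48 and 3.41. Pcdhb19, Pcdhb16 and Pcdhb7 overlapped between the groups. Their Pomc values were 7.71 to 12.7 TPM for Pcdhb19, 8.17 to 11.8 for Pcdhb16 and 5.42 to 10.1 for Pcdhb7. The median coefficient of variation over the 4 Pomc libraries was 46.3% for beta members and 48.2% for type II cadherins, but 11.6% for gamma and 21.4% for alpha members, whose levels are also higher.

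Genes that work with cadherins showed no call. Of 61 listed genes, 57 were in the table and 51 were tested, with 0 called in either direction by limma, beside 0.412% of all tested genes. At an unadjusted limma p under 0.05 there were 2, or 3.92%, beside 7.36% of all tested genes. The groups did not overlap in 5, or 9.8%, beside 15.9% of all tested genes, so both shares lay below those of all genes. The median log2 fold change was -0.03, beside 0.02 over all tested genes. Ctnnb1, the beta-catenin gene, stood at 283, 365, 271 and 306 TPM in the Pomc libraries against 334 and 369. Ctnna2, the neuronal alpha-catenin gene, stood at 187, 227, 245 and 186 TPM against 224 and 167. Ctnnd1 and Ctnnd2, which bind the membrane-near part of the cadherin tail, overlapped as well, with log2 fold changes of -0.08 ± 0.22 and -0.26 ± 0.24.

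The related genes with a log2 fold change of at least 1 in size and no overlap were Ctnna1, Fat4 and Cdhr2. Ctnna1, the alpha-catenin gene of epithelia and neural progenitors, stood at 50.3, 50.3, 65.9 and 64.2 TPM in the Pomc libraries against 28.5 and 23.6 (log2 1.11 ± 0.27, limma adjusted p = 0.215). Fat4, a giant cadherin that pairs with Dchs1 across cell contacts, stood at 16.3, 8.04, 12.4 and 15.46 TPM against 35.9 and 19.9 (log2 -1.03 ± 0.47). Cdhr2, known from intestinal microvilli, stood at 0 to 1.04 TPM against 3.17 and 3.41. None of the 14 tested regulators of clustered protocadherin choice, such as the insulator protein Ctcf and the chromatin protein Smchd1, was called, and 0 had an unadjusted limma p under 0.05. The 13 tested signalling partners, such as the kinase genes Fyn and Ptk2, likewise had 0 calls and 0 at an unadjusted p under 0.05.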

How the data were processed

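RNA of sorted Pomc (4 libraries) and Npy (3 columns) neurons was made into libraries from 1 ng of total RNA with a stranded kit, per the labels' protocols. HISAT2, edgeR 3.8 and mm10 are named in the submitters' processing notes, with no role. For the counting tool, annotation, use of strand and gene lengths, the sources used here give nothing. The values the authors deposited have no unit in the header and were taken as TPM, because 6 of 7 columns sum to 1000000, the column of Npy replicate 3 sums to 996136, and short RNA genes lead. No counts were recovered, so no count test was run and depth is unknown.

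The 4 rows of 2 repeated symbols were left out. Genes at 1 TPM or more in at least 2 of the 6 libraries were fitted with limma 3.58.1 in R 4.3.3 (trended prior variance) on log2(TPM + 1), 4 Pomc against 2 Npy libraries, with no covariate. The fit was tested on simulated data. Intervals are 95% intervals of the fit. A two-sided exact permutation test has 15 splits. Positions come from RefSeq (GRCm38.p6, 92 members matched, 1 by a synonym) and exons from GENCODE M21. Named were members past the threshold, those with a log2 fold change of at least 1 in size and no overlap, the 5 most abundant of each class and markers of other cells. Others are given as examples or ranges. Members and lists were chosen with earlier results of these data known. The alternatives were another pseudocount, 2 other filters, 2 scalings, 1 prior variance, a replicate block, all 7 columns and each library left out.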

Additional observations from a re-analysis of the deposited data

Results flagged for a closer look

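In each of the 89 members whose values varied over the Pomc libraries, the library farthest from the others was set against the range of the 4 Pomc libraries. In 8 members a single library stood apart. The rule's chance rate of about 1 in 20 assumes normally spread values, which TPM need not be. No share over all genes was computed, and the alpha and gamma rows among the 89 are not independent. The 8 members are therefore not read as more than chance gives. In 3 of them it was Pomc replicate 4, the library that also had the highest sum of microglia genes. There Cdh18 had 14.1 TPM, beside 1.19 to 2.18 TPM in the others, Cdh20 had 7.51 TPM, beside 0.760 to 1.01 TPM, and Pcdh12 had 3.92 TPM, beside 0 to 0.0685 TPM. In Pomc replicate 1, Cdh4 had 65.6 TPM, beside 26.0 to 32.7 TPM, and Pcdh20 had 1.13 TPM, beside 0 to 0.117 TPM. In Pomc replicate 2, Pcdhb18 had 9.98 TPM, beside 3.03 to 4.07 TPM. In Pomc replicate 3, Cdh1 had 0.0693 TPM and Pcdhb1 had 0.591 TPM. Both are listed at 0 in the other Pomc libraries, so that any value above 0 stands apart. Pcdh12 and Pcdh20 were also listed at 0 in some of the other Pomc libraries.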

How the results depend on the processing

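Cdh7 stayed higher in Pomc neurons under all 14 alternatives. Its limma adjusted p was 0.0335 with a filter of 5 TPM, 0.0369 without short RNA genes and 0.0361 with 1 prior variance. All 7 columns gave a limma adjusted p of 0.00517, but that fit counts the computed column of Npy replicate 3 as a library. Neither that p nor the 205 genes called there can be read as a valid test. For Cdh7 the limma adjusted p was 0.0518 with a pseudocount of 0.1 (log2 3.01) and 0.0965 with no filter. It was 0.0526 with libraries centred on their median (log2 2.68) and 0.475 with the replicate block (log2 2.50). The members called were then 0, as they were (0 to 0) with any 1 library left out. The count over all genes, 57, became 37 with a pseudocount of 0.1, 33 with no filter, 12 with the replicate block, 205 with all 7 columns and 22 to 69 with 1 library left out. Deviations of same-numbered libraries from their group means correlated at -0.04 and -0.03 in the 2 pairs. With 2 Npy libraries, the deviations of 1 mirror those of the other. These correlations therefore cannot show whether same-numbered samples share a litter or a batch.

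Values that were not called changed sign in some fits. With the replicate block, log2 fold changes were 0.14 for Pcdhac2, 0.073 for Pcdha11, 0.17 for Pcdha12, 0.16 for Pcdha6, 0.21 for Pcdha9, -0.34 for Pcdhb20, 0.0067 for Pcdhgc3, 0.0018 for Pcdhgb6, 0.053 for Pcdhgb7, 0.0088 for Pcdhga11 and 0.036 for Pcdhga10. With 1 library left out, they ran from -0.13 to 0.32 for Cdh2, -0.27 to 0.83 for Cdh22, -0.10 to 0.078 for Pcdhac2, -0.16 to 0.089 for Pcdha11, -0.20 to 0.084 for Pcdha12, -0.22 to 0.089 for Pcdha6, -0.17 to 0.17 for Pcdha9 and -0.054 to 0.48 for Pcdhb20. They ran from -0.17 to 0.047 for Pcdhb19, -0.33 to 0.89 for Pcdhb16, -0.69 to 1.23 for Pcdhb7, -0.22 to 0.030 for Pcdhgc3, -0.15 to 0.33 for Pcdh10, -0.94 to 0.077 for Pcdh17 and -1.09 to 0.84 for Pcdh15.

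The log2 difference of summed TPM ran from -0.15 to 0.27 for type I cadherins (0.06 with all libraries, -0.38 without Cdh2), 0.56 to 2.36 for other cadherins (1.46) and -0.13 to 0.30 for beta protocadherins (0.08) with 1 library left out. The cause of these changes was not tested. With 2 Npy libraries, only large and even differences could be called.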
